A study of Mus musculus with 12 samples.

Results

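The adipogenic transcription factors are 10 genes, Cebpa, Cebpb, Cebpd, Klf4, Klf5, Klf15, Egr2, Ebf1, Nr1h3 and Stat5a, whose products switch on the fat cell programme or feed into it. They were chosen by symbol: every probe set assigned to exactly 1 of these genes was taken, which gave 18 of the 22690 probe sets on the array, where 20380 probe sets stand for 12393 genes by 1 symbol each. The RNA came from mouse embryonic fibroblasts (MEFs) that lacked their own PPARγ, the nuclear receptor that commits cells to the fat lineage, and carried an introduced receptor; all had been put through 6 days of adipocyte differentiation. There were 12 Affymetrix arrays in 4 groups of 3. Cells with wild-type PPARγ were untreated, given 1 µM rosiglitazone for 24 h or given 1 µM MRL24 for 24 h, and untreated cells carried the S273A mutant, in which the serine that is phosphorylated is replaced by alanine. Rosiglitazone is a full agonist of PPARγ and MRL24 a partial agonist. All cells therefore share the loss of endogenous PPARγ and medium with 10% fetal bovine serum; the sources used here do not state whether untreated cells received vehicle. The labels name no separate cultures or clones, so p-values measure the spread between these samples, which may be technical, and the form of the receptor cannot be told apart from the cell population that carries it.

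Fat cell formation in culture runs through a relay of transcription factors. KLF4 and EGR2 (KROX20) are induced within hours of hormonal stimulation and help to turn on C/EBPβ; C/EBPβ and C/EBPδ, driven by cyclic AMP and glucocorticoid signals, then raise PPARγ and C/EBPα, which maintain each other and the genes of the mature fat cell. KLF5 lies between the early C/EBP proteins and PPARγ, EBF1 supports PPARγ and C/EBPα, STAT5A carries growth hormone and prolactin signals that favour the programme, and KLF15 and the oxysterol receptor LXRα, the product of Nr1h3, act later on glucose uptake and lipid metabolism.

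Values are intensities, the brightness of a probe set on a linear scale, and differences are of log2(intensity + 16), which understates changes of dim probe sets. Folds are back-transformed from these differences and are not ratios of the mean intensities. A probe set was tested where its mean over the 12 arrays reached 110, and a difference was called where limma's p, after Benjamini-Hochberg adjustment over all 14266 tested probe sets of a comparison, was under 0.05. Array medians lay between 297 and 315. Replicate 2 of untreated wild-type cells lay far from the rest: on the leading principal component, with 26.6% of the variance, it lay at −23.5 and the other 11 between −6.84 and 10.9. The cells are labelled differentiated MEFs or adipocytes, and their fat cell markers were mixed in level. Fabp4, the fatty acid binding protein of adipocytes, was at 9509 in untreated wild-type cells and 25153 with rosiglitazone. Adipoq, which encodes adiponectin, was dim, and its mean over the 12 arrays lay below the filter. Its group means ran from 53.5 in untreated wild-type cells to 139 with rosiglitazone. Fibroblast and preadipocyte markers were bright in every group, among them Dlk1 (group means 13075 to 14781) and Dcn (16383 to 18031). In bulk RNA like this, fewer cells of a type and less RNA per cell cannot be told apart.

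The start regions of 3 of these genes are shown because their transcripts changed and the letters show signal-responsive motifs of the kind the early relay uses. Each is the 250 bases before an annotated start from RefSeq (build GRCm38.p6), printed 5′ to 3′ on the gene's strand. For Egr2 (chr10:67537619-67537868, plus strand) the capitals mark a CArG box, the element that serum response factor binds. For Klf4 (chr4:55532476-55532725, minus strand) they mark GCGNGGGCG, the core that EGR proteins bind, on either strand. For Cebpb (chr2:167688665-167688914, plus strand) they mark TGACG on either strand, the core that begins a cyclic AMP response element.
Egr2: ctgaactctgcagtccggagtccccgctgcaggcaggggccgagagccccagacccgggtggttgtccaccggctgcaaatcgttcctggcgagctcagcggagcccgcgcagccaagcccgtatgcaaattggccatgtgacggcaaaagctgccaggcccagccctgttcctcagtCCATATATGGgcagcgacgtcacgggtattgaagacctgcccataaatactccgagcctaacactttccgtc
Klf4: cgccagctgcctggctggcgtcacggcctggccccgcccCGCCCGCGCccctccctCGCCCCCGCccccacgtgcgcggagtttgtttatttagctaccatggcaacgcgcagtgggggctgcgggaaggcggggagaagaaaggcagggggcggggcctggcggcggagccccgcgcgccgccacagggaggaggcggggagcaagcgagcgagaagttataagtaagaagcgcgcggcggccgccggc
Cebpb: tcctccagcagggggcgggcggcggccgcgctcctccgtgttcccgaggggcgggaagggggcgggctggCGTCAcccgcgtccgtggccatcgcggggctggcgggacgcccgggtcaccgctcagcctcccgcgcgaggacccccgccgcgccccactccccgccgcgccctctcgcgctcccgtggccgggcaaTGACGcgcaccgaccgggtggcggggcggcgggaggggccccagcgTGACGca
The Egr2 box runs from base 72 to base 63 before the start, and 4 of the 5 windows listed for Egr2, 3 of which overlap and share this box, hold a CArG box, against 1.47% of all 32851 mouse windows of this length. The Klf4 window holds 2 EGR cores, at bases 211 to 203 and 194 to 186, each overlapping a GC box (GGGCGG); 4.7% of all windows hold such a core and 32.7% a GC box. The Cebpb window holds 3 half-sites, the nearest at bases 7 to 3, and 17.8% of all windows hold at least 1. Unmarked half-sites also lie in the printed Egr2 window, at bases 111 to 107 and 55 to 51, and in the Klf4 window, at 232 to 228. The window of Klf15, which was too dim to test, holds 2 half-sites and 1 EGR core. Those of Stat5a, which was called, hold no CArG box, half-site or EGR core. The tables held windows for 8 of the 10 genes, those other than Cebpd and Klf5, and 6 motifs were searched on both strands. A match describes letters, not binding.

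Of the 18 probe sets, 15 of 8 genes were bright enough to test, and the factors did not move as a block. With S273A, 4 of the 15 were called, beside 8.08% of all tested probe sets: both of Egr2 and 1 of Klf4 were lower and 1 of Stat5a was higher than in untreated wild-type cells. With rosiglitazone, 4 were called, beside 9.49% of all: 1 each of Cebpd, Klf4 and Egr2 lower and 1 of Stat5a higher. With MRL24, 3 were called, beside 8.74%: both of Cebpb and 1 of Stat5a, all higher. The 3 comparisons share the same 3 untreated wild-type arrays. By gene, taking the brighter tested probe set, 2, 3 and 1 of the 8 were called with S273A, rosiglitazone and MRL24, beside 7.49%, 8.48% and 6.95% of 8990 genes. The median log2 difference of the 15 probe sets was −0.04, −0.01 and −0.11 in that order, and that of all tested probe sets −0.00, 0.00 and 0.02. Groups did not overlap for 6, 5 and 7 of the 15, beside 23.5%, 26.7% and 30.7% of all tested probe sets.

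**Figure D1:**
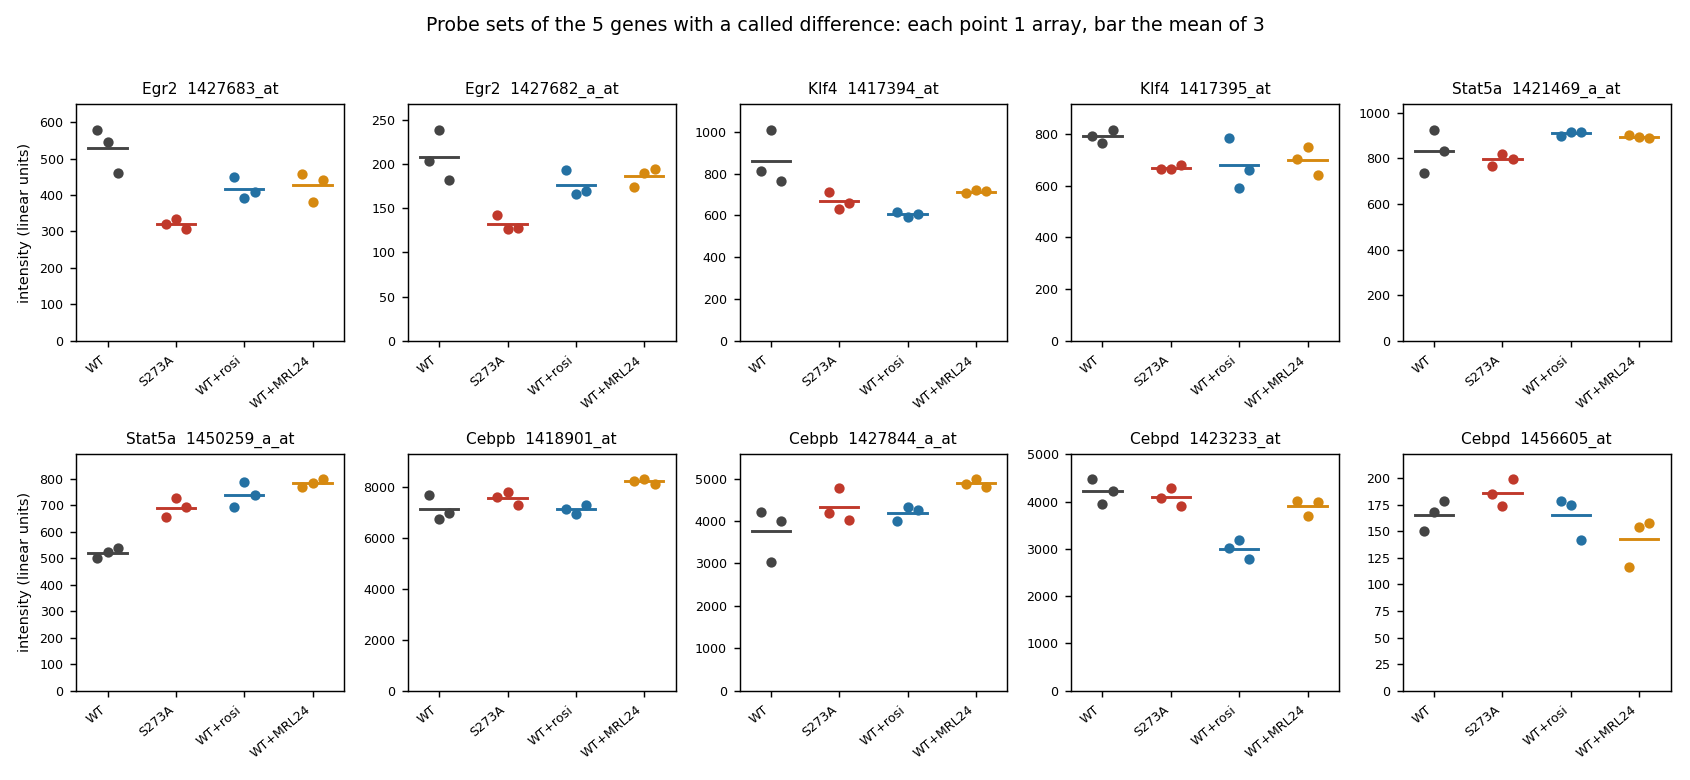
Intensity (linear axes from 0) of the 10 probe sets of Egr2, Klf4, Stat5a, Cebpb and Cebpd, the 5 genes with a called difference; each point is 1 of the 12 arrays and each horizontal bar the mean of a group of 3. Both Egr2 probe sets are lowest with S273A, Cebpd 1423233_at is lowest with rosiglitazone, and Stat5a 1450259_a_at is lowest in untreated wild-type cells.

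Egr2, a zinc finger factor of the earliest phase, showed the largest difference from untreated wild-type cells among the 15 tested probe sets. Its brighter probe set, 1427683_at, read 579, 546 and 461 in untreated wild-type cells, 320.2, 335 and 308 with S273A, 449, 390.4 and 408 with rosiglitazone, and 457, 381 and 441 with MRL24. All 3 S273A arrays were below every other array, and both ligand groups were below untreated wild-type cells without overlap. The mean fell from 529 ± 60.4 to 321 ± 13.9 (SD, n = 3 each) with S273A, a log2 difference of −0.69 (SE 0.10, limma adjusted p = 0.000367), or 1.61-fold. The dimmer probe set, 1427682_a_at, went from 208 ± 28.8 to 132 ± 8.83, a log2 difference of −0.59 (SE 0.12, limma adjusted p = 0.0068). The 2 probe sets followed each other over the 12 arrays (r = 0.887, a description), and both S273A calls held in every alternative that kept the probe set, also without wild-type replicate 2.

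The ligands gave smaller differences at Egr2. With rosiglitazone 1427683_at was at 416 ± 30.2, a log2 difference of −0.33 (SE 0.10, limma adjusted p = 0.0394), and 1427682_a_at was at 176 ± 14.7, a difference of −0.22 that was not called (adjusted p = 0.288). The rosiglitazone call was lost when wild-type replicate 1 (adjusted p = 0.124) or 2 (0.108) was left out, and also without rosiglitazone replicate 2 (0.16) or 3 (0.101), without S273A replicate 2 (0.05) and without MRL24 replicate 3 (0.0518). It was lost too without a filter (0.0756), with only the 6 arrays compared (0.0925) and without a trend in the variance model (0.0543), and the mean of both probe sets differed by −0.27 and was not called (adjusted p = 0.0758). With MRL24 the log2 difference of 1427683_at was −0.30 (95% interval −0.50 to −0.10), which was not called (adjusted p = 0.062); it was called with quantile normalization (0.0461), equal medians (0.0403) and array weights (0.042), and when wild-type replicate 3 was left out (0.0202). In order of level, untreated wild-type cells were highest, then MRL24, rosiglitazone and S273A. MRL24 and rosiglitazone did not differ beyond their spread (log2 difference −0.03, 95% interval −0.23 to 0.17). Both stood above S273A, by 0.36 for rosiglitazone (limma adjusted p = 0.0279) and 0.39 for MRL24 (limma adjusted p = 0.0183), in contrasts added after the data had been seen. Its dimmer probe set stood above S273A by 0.37 and 0.45 (adjusted p = 0.0686 and 0.029); the latter call was lost when S273A replicate 2 or 3 or any MRL24 replicate was left out (0.0517 to 0.104), and the former difference was called when wild-type replicate 2 was left out (0.0428), with array weights (0.0461) and without a trend (0.0341). In these contrasts, beside 8.94% (rosiglitazone) and 10.3% (MRL24) of all tested probe sets called, the rosiglitazone call of 1427683_at was lost without S273A replicate 1 (0.0698) or 3 (0.0951) or rosiglitazone replicate 1 (0.124) or 3 (0.0634) and without a filter (0.0575), and the MRL24 call without S273A replicate 3 (0.0664) or MRL24 replicate 1 (0.0774) or 3 (0.076).

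Klf4, whose product acts beside EGR2 in the earliest phase, was lower with S273A and with rosiglitazone by 1 of its 2 probe sets. Probe set 1417394_at read 813, 1009 and 765 in untreated wild-type cells, 709.6, 632 and 659 with S273A, 618, 591 and 606 with rosiglitazone, and 705, 722 and 715 with MRL24. All 9 arrays of the other groups lay below the 3 untreated wild-type arrays, which were themselves widely spread. The log2 difference was −0.35 with S273A (SE 0.09, limma adjusted p = 0.0177) and −0.49 with rosiglitazone (SE 0.09, limma adjusted p = 0.00175), or 1.28-fold and 1.40-fold. With MRL24 it was −0.26 (SE 0.09), which was not called (adjusted p = 0.071) but was with equal medians (0.0499) and when wild-type replicate 3 was left out (0.0245). The S273A call was lost without S273A replicate 2 (0.0793) or 3 (0.0598) and with only the 6 arrays compared (0.0936); the rosiglitazone call held in every alternative, at an adjusted p of at most 0.0196.

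The other Klf4 probe set, 1417395_at, read 789.8, 766 and 815 in untreated wild-type cells and 664, 665 and 679.6 with S273A. It read 782, 589.8 and 659.9 with rosiglitazone and 701, 749.8 and 639 with MRL24, so that only rosiglitazone replicate 1 overlapped the untreated range. Its differences of −0.23, −0.23 and −0.18 with S273A, rosiglitazone and MRL24 were not called (adjusted p = 0.122, 0.121 and 0.203). Without rosiglitazone replicate 1 the rosiglitazone difference was called (limma adjusted p = 0.0239). Averaging both probe sets, an alternative added after the data had been seen, gave −0.29 with S273A (limma adjusted p = 0.0135), −0.36 with rosiglitazone (0.0032) and −0.22 with MRL24 (0.062). Rosiglitazone, S273A and MRL24 followed each other upward in the level of 1417394_at, and no neighbours in that order were called apart. Rosiglitazone arrays lay below the S273A arrays without overlap, with a log2 difference of −0.14 (adjusted p = 0.384), and MRL24 and S273A arrays overlapped (adjusted p = 0.507).

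Other genes of the immediate-early response did not follow Egr2 and Klf4 in 1 direction. With S273A, 3 of 20 tested immediate-early genes fell and 2 rose, beside 7.49% of all genes called (8.48% with rosiglitazone and 6.95% with MRL24). The median of the 20 with S273A was 0.02 beside −0.01 over all genes. Egr1, the close relative of Egr2, fell from 4262 to 3491 (log2 difference −0.29, limma adjusted p = 0.00121), and Dusp6, a phosphatase induced by ERK signalling, fell by 0.34 (adjusted p = 0.00753), as did Ccn1, a matricellular protein, by 0.27 (adjusted p = 0.000217). Atf3, a stress-induced bZIP factor, rose by 0.40 (adjusted p = 0.00366) and Dusp1, a phosphatase also induced by glucocorticoids, rose by 0.33 (adjusted p = 0.000249). With each ligand 1 of the 20 rose and 1 fell: Dusp1 rose in both, by 0.28 with rosiglitazone and 0.20 with MRL24; Egr1 fell by 0.16 with rosiglitazone, a call lost in 13 of 23 alternatives, and Btg2, an antiproliferative gene, fell by 0.35 with MRL24. The Dusp6 call was lost when only the 6 arrays compared were fitted (0.0632), the MRL24 calls of Dusp1 and Btg2 without MRL24 replicate 3 (0.067 and 0.0574), and the other Btg2 probe set differed by 0.07. Among 8 tested relatives of the EGR, EBF, STAT and LXR families, Egr1 was the only gene whose brightest probe set was called in any of the 3 comparisons with untreated wild-type cells.

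The C/EBP factors of the early relay were called with different ligands, each against untreated wild-type cells. Cebpb, which encodes C/EBPβ, rose with MRL24 by both probe sets, and Cebpd, which encodes C/EBPδ, fell with rosiglitazone by its brighter probe set. Probe set 1418901_at of Cebpb read 7672, 6728 and 6948 in untreated wild-type cells, 7583, 7786 and 7269.7 with S273A, 7111, 6911 and 7292 with rosiglitazone, and 8219.8, 8277 and 8109 with MRL24. The 3 MRL24 arrays were above all others. The log2 difference between MRL24 and untreated wild-type cells was 0.21 (SE 0.05, limma adjusted p = 0.0149), or 1.15-fold, and that with rosiglitazone was −0.00 (95% interval −0.10 to 0.10).

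Probe set 1427844_a_at of Cebpb read 4221, 3036 and 4008 in untreated wild-type cells and 4873, 4981 and 4812 with MRL24, the low value being wild-type replicate 2. It read 4185, 4777 and 4031 with S273A and 4001, 4337 and 4254 with rosiglitazone, both overlapping the untreated range. Its MRL24 difference was 0.39 (SE 0.09, limma adjusted p = 0.0178). These calls were near the threshold: that of 1418901_at was lost without MRL24 replicate 2 (0.0593) or 3 (0.0524), and that of 1427844_a_at without MRL24 replicate 1 (0.051), 2 (0.0654) or 3 (0.0606). Both were also lost with only the 6 arrays compared (0.0614 and 0.067) and without a trend in the variance model (0.0631 and 0.0601). The call of 1427844_a_at was lost without a filter too (0.0561). With S273A the Cebpb differences were 0.09 and 0.22, and neither was called (adjusted p = 0.295 and 0.176). With rosiglitazone 1427844_a_at differed by 0.17, in the direction of its MRL24 difference, and was not called (limma adjusted p = 0.263). The order of levels for 1418901_at was MRL24, S273A, untreated and rosiglitazone, with no neighbours called apart, although the MRL24 and S273A arrays did not overlap (log2 difference 0.12, adjusted p = 0.115).

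Probe set 1423233_at of Cebpd read 4470.4, 3961 and 4225 in untreated wild-type cells, 4079, 4292 and 3905 with S273A, 3025, 3195 and 2782 with rosiglitazone, and 4014, 3690.4 and 3999 with MRL24. Every rosiglitazone array was below all 9 others, and the other 3 groups overlapped. The mean fell from 4219 ± 255 to 3001 ± 208 (SD, n = 3 each), a log2 difference of −0.49 (SE 0.06, limma adjusted p = 8.04e-05), or 1.40-fold, and the call held in every alternative. The differences with S273A and MRL24 were −0.04 and −0.11 (95% intervals −0.17 to 0.09 and −0.24 to 0.02). The dim probe set of Cebpd, 1456605_at, did not show the fall: its group means were 166 ± 14, 186 ± 12.3, 165 ± 20.3 and 143 ± 22.7 in untreated, S273A, rosiglitazone and MRL24 cells, with a rosiglitazone difference of −0.01 (95% interval −0.30 to 0.28). The 2 Cebpd probe sets were unrelated over the 12 arrays (r = 0.057, a description), so the Cebpd result rests on 1423233_at.

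Of the other C/EBP genes 2 could be tested, and Ddit3 (CHOP), a stress-induced member that can pair with and block C/EBP proteins, fell with rosiglitazone from 7362 to 5997 (log2 difference −0.29, limma adjusted p = 0.0027). Among 12 tested glucocorticoid-induced genes, background for Cebpd, 2 rose and 2 fell with rosiglitazone: Tsc22d3 (GILZ), which restrains fat cell formation, rose by 0.44 (limma adjusted p = 0.000465) and Dusp1 as given above, while Lcn2, a secreted lipid carrier, fell by 0.54 (limma adjusted p = 3.8e-06) and Sgk1, a kinase, fell by 0.32 (limma adjusted p = 0.00116). The other 2 Tsc22d3 probe sets differed by 0.03 each. With S273A 1 of the 12 rose (Dusp1) and 1 fell (Mt2, a metallothionein, by 0.16, adjusted p = 0.00124), and with MRL24 Dusp1 rose and Lcn2 fell by 0.17 (adjusted p = 0.0469), a call lost in 14 of 23 alternatives. The Mt2 call was lost without a trend in the variance model (0.0558). Beside these counts, 8.48%, 7.49% and 6.95% of all genes were called with rosiglitazone, S273A and MRL24.

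**Figure D2:**
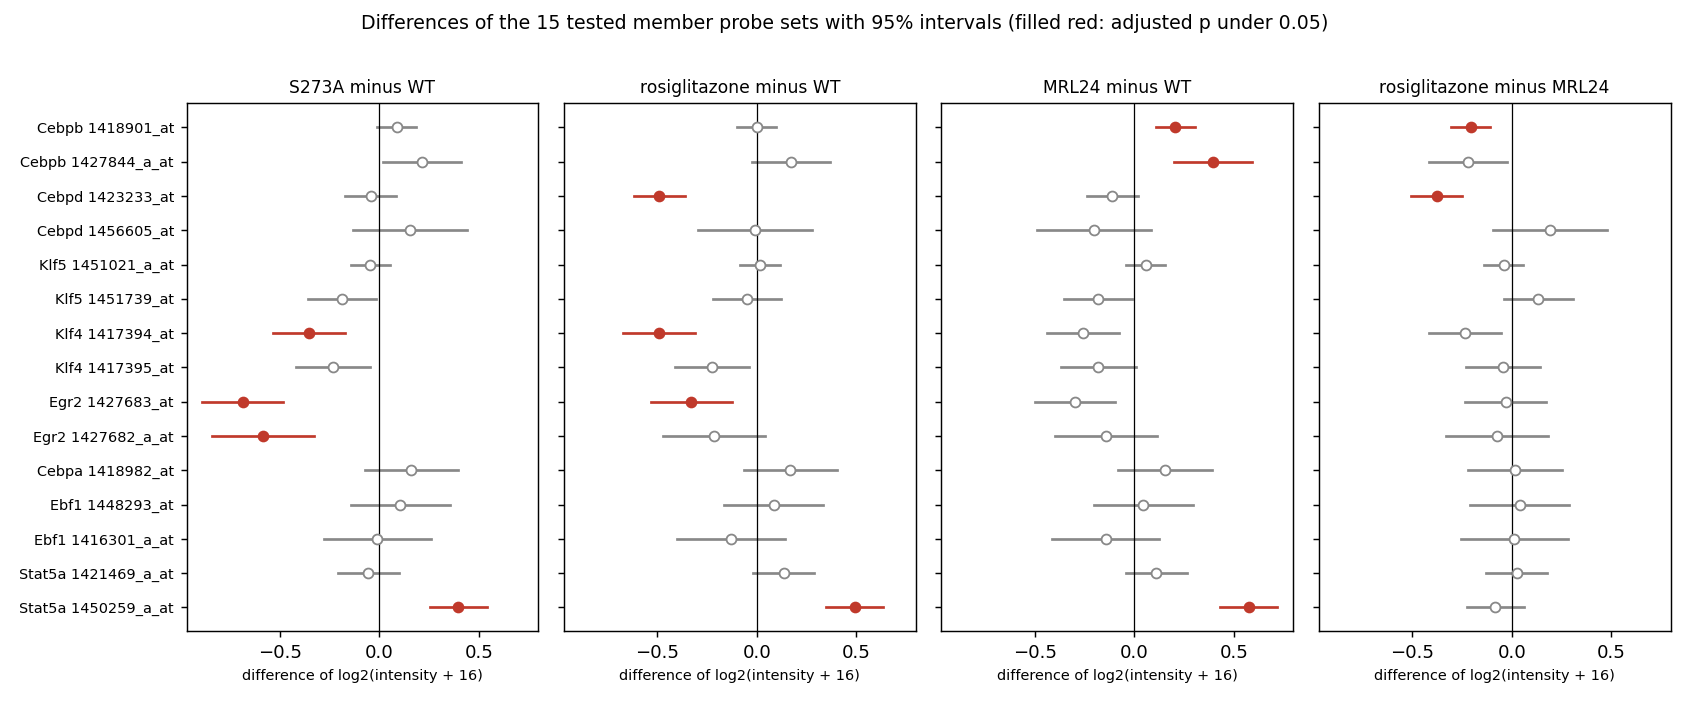
Log2 difference of each tested member probe set from untreated wild-type cells, and of rosiglitazone from MRL24, with 95% intervals from the fit; filled red points are called at an adjusted p under 0.05. Egr2 lies furthest to the left with S273A (−0.69) and Stat5a 1450259_a_at furthest to the right with MRL24 (0.58).

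Stat5a was called by 1 of its 2 probe sets in all 3 comparisons with untreated wild-type cells, and by the other in none. Probe set 1450259_a_at read 503, 523 and 538 in untreated wild-type cells, 655, 728 and 693 with S273A, 694, 790.0 and 738 with rosiglitazone, and 769, 786 and 798 with MRL24. The untreated wild-type arrays lay below all 9 others. The log2 difference was 0.40 with S273A (SE 0.07, limma adjusted p = 0.00179), 0.49 with rosiglitazone (SE 0.07, limma adjusted p = 0.0002) and 0.58 with MRL24 (SE 0.07, limma adjusted p = 0.000304), or 1.32-fold, 1.41-fold and 1.49-fold. All 3 calls held in every alternative that kept this probe set, also without wild-type replicate 2. In order of level S273A, rosiglitazone and MRL24 followed untreated cells, and no pair of these 3 was called apart. Rosiglitazone stood above S273A by 0.10 (adjusted p = 0.448) and below MRL24 by a log2 difference of −0.08 (95% interval −0.23 to 0.06). MRL24 and S273A arrays did not overlap, and their difference was 0.18 (95% interval 0.04 to 0.32, adjusted p = 0.105).

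The brighter Stat5a probe set, 1421469_a_at, read 735, 925 and 831 in untreated wild-type cells, a range that took in every other array of the series. Group means were 795 ± 25.7 with S273A, 909.7 ± 10.3 with rosiglitazone and 893 ± 7.01 with MRL24, beside 830.2 ± 94.9 untreated. The differences of −0.06, 0.14 and 0.11 were not called (adjusted p = 0.707, 0.263 and 0.351). The mean of both probe sets was called with rosiglitazone (0.31, limma adjusted p = 0.00346) and MRL24 (0.34, limma adjusted p = 0.0058) and not with S273A (0.17, adjusted p = 0.0953). Stat5b, a nearly identical neighbour gene whose transcripts a Stat5a probe could catch, was also split: 1422102_a_at differed by 0.21, 0.50 and 0.73 with S273A, rosiglitazone and MRL24 (adjusted p = 0.435, 0.049 and 0.00996), and 1422103_a_at by 0.05, 0.01 and −0.15 (adjusted p = 0.88, 0.971 and 0.542). Cross-hybridization between the paralogs was not tested.

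Of 9 tested genes that STAT5 is known to induce, limma called none with S273A, 3 as lower with rosiglitazone and 2 as lower with MRL24. Calls in either direction took in 7.49%, 8.48% and 6.95% of all genes in these comparisons. At an unadjusted p under 0.05, 1 of the 9 was higher and 2 were lower with S273A, 4 lower with rosiglitazone, and 2 higher and 3 lower with MRL24. Ccnd1, which encodes cyclin D1, fell by 0.37 with rosiglitazone (limma adjusted p = 0.00187) and by 0.25 with MRL24 (limma adjusted p = 0.027). Socs3, a feedback inhibitor of cytokine receptors, fell by 0.24 (adjusted p = 0.0135) and 0.20 (adjusted p = 0.0371), and Socs2, its relative, by 0.25 with rosiglitazone (adjusted p = 0.0195). Only the rosiglitazone call of Ccnd1 held in every alternative. The others were lost without single arrays. Socs3 lost its rosiglitazone call without rosiglitazone replicate 1 (0.0725), and Socs2 lost its call when rosiglitazone replicate 1 (0.0653) or 3 (0.0656) or wild-type replicate 2 (0.0709) was left out. Both MRL24 calls were lost when any MRL24 replicate or wild-type replicate 2 was left out, and that of Socs3 also without rosiglitazone replicate 2 (0.0503).

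Klf5, a target of the early C/EBP proteins, did not pass the test in any comparison. Its brighter probe set, 1451021_a_at, had group means of 4321 ± 194, 4186 ± 185, 4366 ± 72.4 and 4494 ± 125 in untreated, S273A, rosiglitazone and MRL24 cells. The 95% intervals of its log2 differences from untreated cells were −0.14 to 0.05, −0.08 to 0.11 and −0.04 to 0.16. Probe set 1451739_at read 552, 561 and 553 in untreated cells, 481, 511 and 466 with S273A and 459, 472 and 535 with MRL24, so that neither group overlapped the untreated one. Its differences of −0.19 with S273A and −0.18 with MRL24 were not called (adjusted p = 0.177 and 0.163). Of 10 other tested KLF genes, Klf10, a TGFβ-induced factor, fell with S273A by 0.28 (limma adjusted p = 0.0019), Klf6 rose with MRL24 by 0.38 (adjusted p = 0.0226), and none was called with rosiglitazone (2 higher and 1 lower at an unadjusted p under 0.05). The Klf6 call needed each MRL24 replicate (adjusted p = 0.0616, 0.0946 and 0.0523 without replicates 1, 2 and 3) and wild-type replicate 2 (0.0911 without it). It was lost too without a filter (0.0588) and without a trend in the variance model (0.0612). The other 2 Klf6 probe sets differed by 0.08 and 0.16 with MRL24. Over all genes, 7.49%, 8.48% and 6.95% were called with S273A, rosiglitazone and MRL24.

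**Figure D3:**
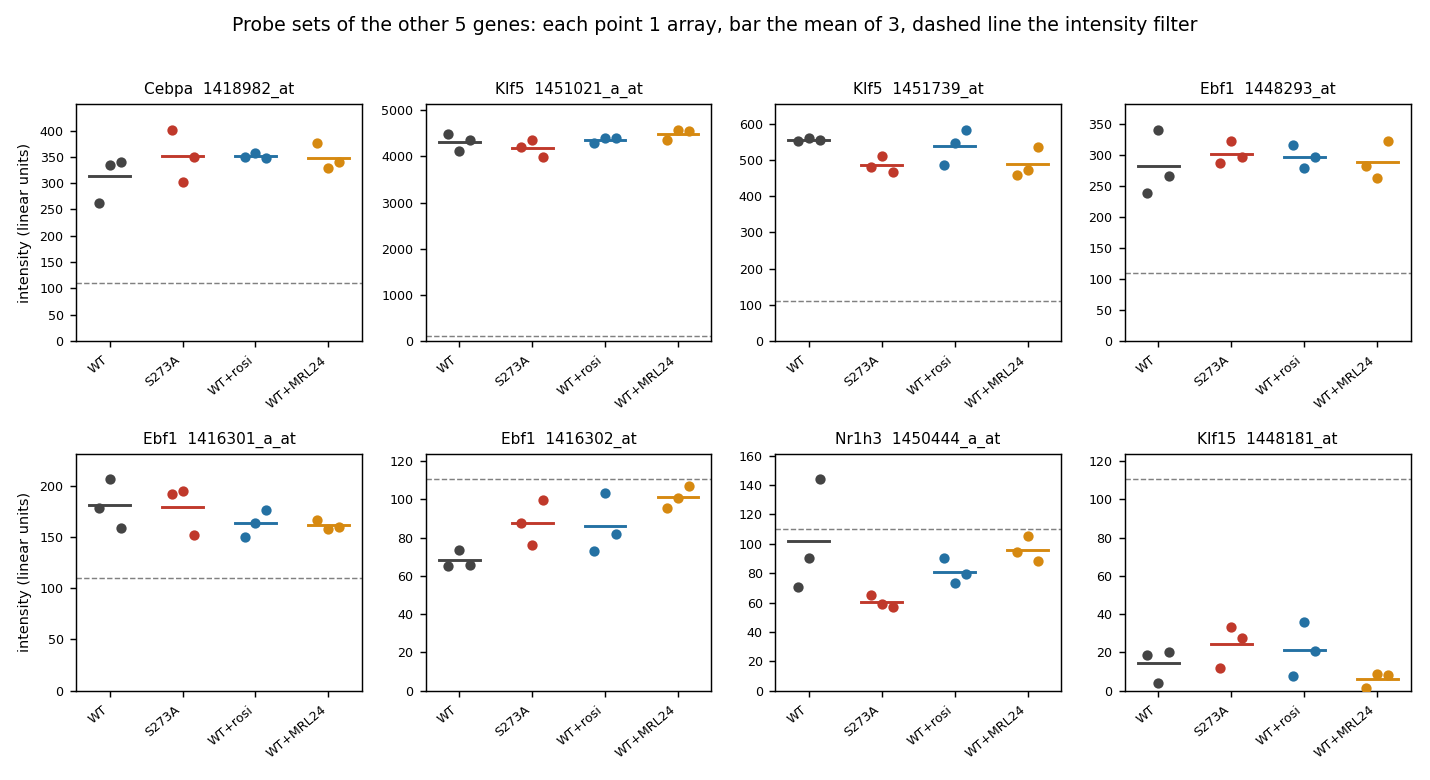
Intensity (linear axes from 0) of the 8 probe sets of Cebpa, Klf5, Ebf1, Nr1h3 and Klf15, with a point for each of the 12 arrays, a horizontal bar for the mean of each group of 3 and a dashed line at the intensity filter of 110. Nr1h3, Klf15 and Ebf1 1416302_at lie below the filter on average, and Klf15 spans 1.31 to 35.7.

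Cebpa, the partner that sustains PPARγ in mature fat cells, did not pass the test in any comparison either. Its probe set 1418982_at read 263, 335 and 341 in untreated wild-type cells, 401, 303 and 349 with S273A, 349, 356 and 349 with rosiglitazone, and 376, 329 and 339 with MRL24. The rosiglitazone arrays were all above the untreated ones, of which replicate 1 was low. The log2 differences were 0.16, 0.17 and 0.15 (adjusted p = 0.428, 0.375 and 0.399), with 95% intervals reaching from −0.07 to 0.39 with S273A, −0.07 to 0.40 with rosiglitazone and −0.08 to 0.39 with MRL24. Pparg itself, at 904 in untreated and 834 to 1073 in the other groups, was not called in these comparisons (adjusted p = 0.166, 0.531 and 0.615). It was highest with S273A. In the added contrasts with S273A it was called as lower with rosiglitazone (−0.35, limma adjusted p = 0.0383) and MRL24 (−0.33, 0.0483). These calls were lost in 9 and 11 of 23 alternatives. The Pparg probe set reads the introduced gene where that carries the probed sequence, which was not checked.

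Of 11 tested fat cell genes that C/EBPα and PPARγ drive, 2 rose with S273A, 5 with rosiglitazone and 4 with MRL24, beside 7.49%, 8.48% and 6.95% of all genes called in either direction, and none was called as lower (none also at an unadjusted p under 0.05); the median differences were 0.12, 0.28 and 0.15, beside −0.01, −0.00 and 0.01 over all genes. Cd36, the fatty acid transporter, rose from 164 to 302 with S273A (log2 difference 0.82, limma adjusted p = 1.39e-05), to 1422 with rosiglitazone (8.02-fold, limma adjusted p = 6.48e-13) and to 411 with MRL24 (1.25, limma adjusted p = 4.22e-07). Fabp4 rose by 1.41 with rosiglitazone and 0.69 with MRL24 (limma adjusted p = 1.18e-11 and 9.02e-07), and Lpl, lipoprotein lipase, by 0.83 and 0.24 (adjusted p = 2.19e-07 and 0.0205). Dgat2 and Lipe, which make and break down triglyceride, rose with rosiglitazone by 0.47 and 0.41 (limma adjusted p = 0.000178 and 0.00847), and Slc2a4, the glucose transporter GLUT4, rose with MRL24 by 0.50 (adjusted p = 0.0356), a call lost in 9 of 22 alternatives. With S273A the other gene was Scd1, a desaturase, higher by 0.15 (adjusted p = 0.0279), lost in 7 of 23. The Lpl call with MRL24 was lost without MRL24 replicate 2 (0.0556) or 3 (0.0978).

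Ebf1, known from B cells and fat cell precursors, did not pass the test by either tested probe set. For 1448293_at the group means were 282 ± 52.6, 302 ± 18.8, 298 ± 19.2 and 289.7 ± 30.6 in untreated, S273A, rosiglitazone and MRL24 cells, and every log2 difference from untreated cells had a 95% interval within −0.20 to 0.35. For 1416301_a_at they were 181 ± 23.9, 179.6 ± 24.1, 163 ± 12.9 and 161 ± 4.23. The remaining Ebf1 probe set, 1416302_at, was below the filter at 68.1 ± 4.68, 87.9 ± 11.7, 86.2 ± 15.5 and 101 ± 5.83. All 3 MRL24 arrays (95.6, 101 and 107) were above the untreated ones (65.3, 73.5 and 65.6). In the fit without a filter that difference was 0.48 (SE 0.14) and not called (adjusted p = 0.0848).

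Nr1h3 and Klf15, the members that act latest, had 1 dim probe set each. Nr1h3 1450444_a_at read 70.8, 90.4 and 144 in untreated wild-type cells, 65.1, 58.8 and 56.7 with S273A, 90.3, 73.5 and 79.2 with rosiglitazone, and 94.5, 106 and 88.2 with MRL24. The 3 S273A arrays were the lowest of the 12, but the untreated arrays were spread over a wide range and, in the fit without a filter, the log2 difference of −0.58 (SE 0.19) was not called (adjusted p = 0.131). Klf15 1448181_at had group means of 14.2 ± 9.07, 24.2 ± 11.1, 21.3 ± 14.1 and 6.03 ± 4.1 in untreated, S273A, rosiglitazone and MRL24 cells, near the bottom of the scale. No difference of Klf15 was called without a filter (adjusted p = 0.574, 0.712 and 0.507).

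Of 12 tested targets of LXR, the receptor family of Nr1h3, 1 rose and 1 fell with S273A, 2 rose and 1 fell with rosiglitazone, and 1 rose with MRL24, beside 7.49%, 8.48% and 6.95% of all genes called. Abca1, the cholesterol exporter, fell with S273A from 913 to 689 (log2 difference −0.39, limma adjusted p = 0.0095), while its other 2 probe sets differed by −0.05 and 0.03. It fell by 0.29 with rosiglitazone (adjusted p = 0.044), a call lost in 14 of 23 alternatives. Lpcat3, which remodels phospholipids, rose with rosiglitazone by 0.52 (limma adjusted p = 0.000223). Lpl, which is also a PPARγ target, made up the other rosiglitazone call and the MRL24 call.

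The 2 ligands were given at the same dose and time, so the members could be compared between them directly. Of 15 tested probe sets 2 were called, beside 2.38% of all: 1418901_at of Cebpb and 1423233_at of Cebpd, both lower with rosiglitazone than with MRL24. By gene, 2 of 8 were called beside 2.41%. Groups did not overlap for 4 of the 15, beside 25.9% of all, and the median difference was −0.04 beside −0.02 over all tested probe sets. Cebpd differed by −0.38 (SE 0.06, 95% interval −0.51 to −0.25, limma adjusted p = 0.00203), and the call held in every alternative that kept the probe set alone, at an adjusted p of at most 0.0243. Its dim probe set, 1456605_at, differed by 0.19 (limma adjusted p = 0.554), and the mean of its 2 probe sets by −0.09 (0.553). Cebpb differed by −0.21 (SE 0.05, 95% interval −0.31 to −0.11, limma adjusted p = 0.0276), and the call was lost without any of the 6 ligand arrays (adjusted p = 0.0654 to 0.129). The call was lost too without a filter (0.0617) and without a trend in the variance model (0.119). The other Cebpb probe set differed by −0.22 (SE 0.09, adjusted p = 0.263). That difference was called with only the 6 arrays compared (0.00557), with array weights (0.0409) and when wild-type replicate 2 was left out (0.0251). The mean of both Cebpb probe sets differed by −0.21 and was not called (adjusted p = 0.099). Klf4 1417394_at did not overlap between the ligands, at 605 ± 13.1 with rosiglitazone and 714 ± 8.77 with MRL24, yet its difference of −0.23 (95% interval −0.41 to −0.05) was not called (adjusted p = 0.188); it was called when wild-type replicate 2 was left out (0.0372), with only the 6 arrays compared (0.0344) and with array weights (0.0302). For Cebpa the interval was −0.22 to 0.25, for Klf5 1451021_a_at −0.14 to 0.06, and for Ebf1 1448293_at −0.21 to 0.29. Klf2, a KLF that restrains Pparg, was also lower with rosiglitazone (−0.34, adjusted p = 0.0399), a call lost in 9 of 23 alternatives.

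Other regulators of the relay were counted from lists. Of 20 tested activators of fat cell formation, 4 were called as lower and none as higher with S273A, beside 7.49% of all genes called. At an unadjusted p under 0.05, 2 of the 20 were higher and 4 lower. The 4 called genes were Id2, lower by 0.35 (limma adjusted p = 0.000817), Smad1, a BMP effector, by 0.35 (0.0103), Fosl2, an AP-1 subunit, by 0.32 (0.00225) and Xbp1, a factor of the unfolded protein response, by 0.28 (0.00149). The median of the 20 was −0.02 beside −0.01 over all genes. Smad1 also fell with rosiglitazone by 0.41 (limma adjusted p = 0.00264), the 1 call of that comparison, and none was called with MRL24 (2 higher and 2 lower at an unadjusted p under 0.05). Shares over all genes were 8.48% with rosiglitazone and 6.95% with MRL24. Smad1 lost its S273A call without S273A replicate 3 (0.0543), and its other probe set differed by −0.11 with S273A and −0.08 with rosiglitazone. Other probe sets of Id2 differed by −0.26 and −0.12, and those of Xbp1 ranged from −0.30 to 0.07.

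Of 31 tested factors that restrain fat cell formation, 3 rose and 2 fell with S273A, 3 rose and 2 fell with rosiglitazone, and 4 rose with MRL24. The shares of all genes called in either direction were 7.49%, 8.48% and 6.95% in that order. Nr1d1, the gene of the circadian repressor REV-ERBα, counted in this list although roles in both directions are known, rose in all 3, by 0.52, 0.49 and 0.38 (limma adjusted p = 0.000144, 0.000166 and 0.00418), and these calls held in every alternative. Foxc2, a forkhead factor, also rose with S273A by 0.46 (limma adjusted p = 0.000195) and Id1, an inhibitor of basic helix-loop-helix factors, by 0.29 (limma adjusted p = 0.0029). Those lower with S273A were Bhlhe40, a repressor of the clock, by 0.17 (adjusted p = 0.0225) and Ctnnb1, which encodes β-catenin, by 0.13 (adjusted p = 0.0421), calls lost in 5 and 14 of 23 alternatives. Hes1, a Notch effector, rose with rosiglitazone by 0.43 (adjusted p = 0.0122) and Nr2f1 (COUP-TFI) fell by 0.40 (adjusted p = 0.0136); they lost these calls without rosiglitazone replicate 2 (0.0573 and 0.0779), and Nr2f1 also without replicate 3 (0.0519). The other rosiglitazone calls were Tcf7l2, a Wnt effector, higher by 0.27 (adjusted p = 0.0185) and Ctnnb1, lower by 0.16 (adjusted p = 0.0142), lost in 5 and 3 of 23 alternatives. With MRL24 the calls beside Nr1d1 were Smad3, a TGFβ effector, higher by 0.41 (adjusted p = 0.0273), Tcf7l2 by 0.31 (adjusted p = 0.0123) and Ahr, the dioxin receptor, by 0.29 (adjusted p = 0.0268), lost in 6, 2 and 7 of 23 alternatives. Other probe sets did not always follow: that of Ahr differed by −0.19 with MRL24, those of Ctnnb1 by 0.01 and 0.08 with S273A and −0.03 and 0.11 with rosiglitazone, and those of Tcf7l2 ranged from −0.16 to 0.26 with rosiglitazone and from 0.03 to 0.39 with MRL24. Medians of the list were 0.01, 0.04 and 0.03, beside −0.01, −0.00 and 0.01.

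**Figure D4:**
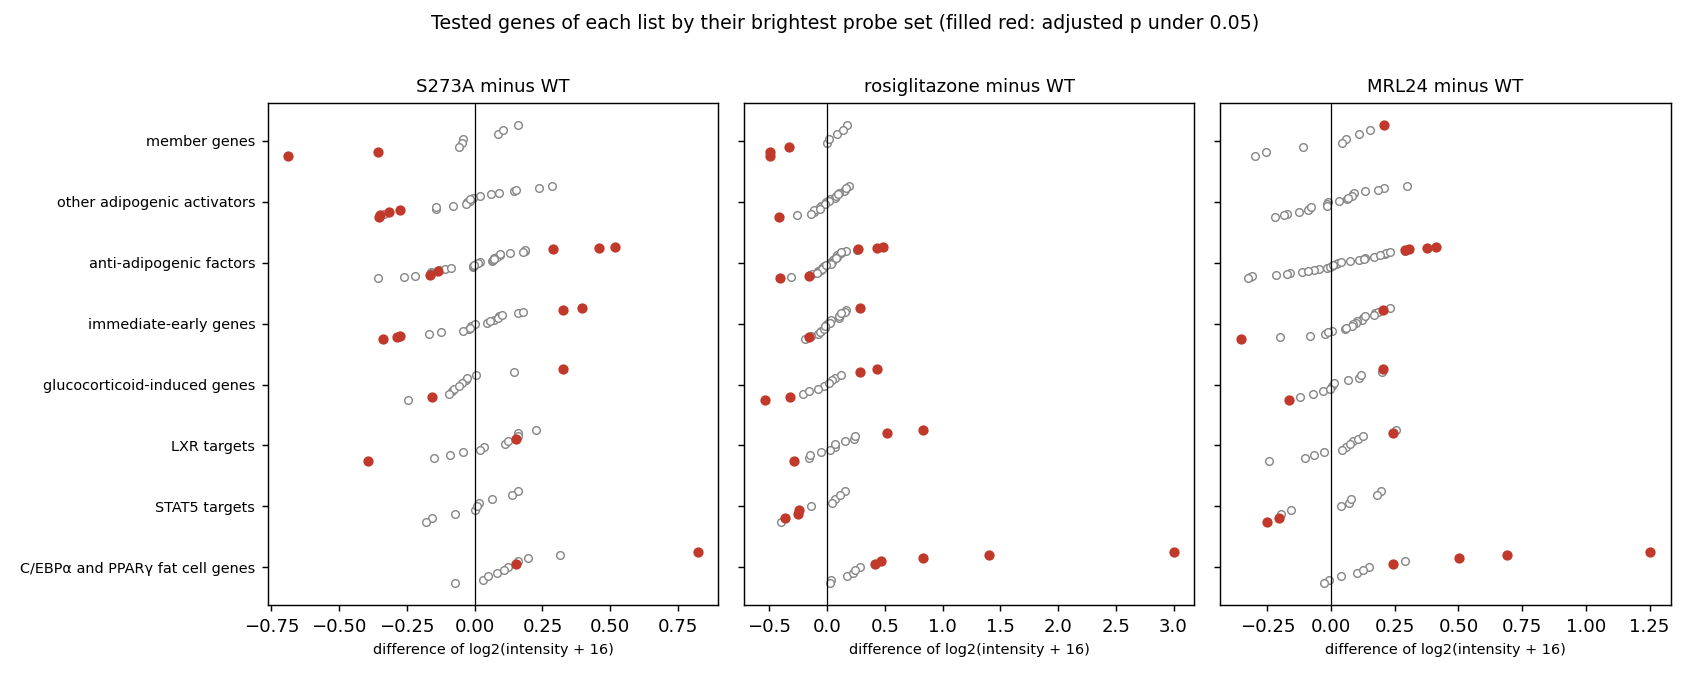
Differences of log2(intensity + 16) on the x axes, whose ranges differ between panels, for the tested genes of each list and the member genes in S273A, rosiglitazone and MRL24 against untreated wild-type cells; each point is a gene by its brightest probe set, filled red where called, and points of a list are spread vertically in rank order. Called genes lie on both sides of 0 in the immediate-early list with S273A, and above 0 among the fat cell genes in all 3 panels.

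Summed linear intensities of fibroblast and macrophage markers did not overlap between untreated wild-type and S273A cells, but the fibroblast sums nearly met. Such a sum mostly follows its brightest genes, and 23.5% of all tested probe sets did not overlap in this comparison. The summed intensity of 7 fibroblast and preadipocyte markers was 58066 to 65646 in untreated wild-type cells and 53556 to 57872 with S273A. Of the 7, 5 fell with S273A, beside 7.49% of all genes called: Pdgfra, Pdgfrb, Col1a1, Col3a1 and Thy1, by 0.24 to 0.64. Dcn and Dlk1, the brightest of the 7 in these groups, went from 17659 to 18031 and from 13702 to 13075 and were not called. The calls of Col1a1 (0.0674) and Thy1 (0.0613) were lost without S273A replicate 3. Pdgfra, a receptor of fat cell precursors, fell by 0.64 with S273A (limma adjusted p = 8.48e-06), by 0.37 with rosiglitazone (limma adjusted p = 0.000879) and by 0.23 with MRL24 (adjusted p = 0.03), the last a call lost when any MRL24 replicate (0.065 to 0.101) or wild-type replicate 1 (0.0781) was left out. The other Pdgfra probe set did not show this fall: it differed by −0.03 with S273A, 0.15 with rosiglitazone and 0.39 with MRL24, the last called as higher (limma adjusted p = 0.0337). The sum of 8 macrophage markers, of which 4 were above the filter, was 2903 to 3363 in untreated wild-type cells, 3646 to 3734 with S273A and 3083 to 3418 over the ligand groups. Cd68, a lysosomal protein, rose from 556.5 to 869.7 with S273A, by 0.63 (limma adjusted p = 4.85e-05). It was the 1 call with S273A among the 4 tested macrophage markers. Among the other macrophage markers, group means of Csf1r were 1587 to 1873, of Cd14 541 to 665 and of Adgre1 194 to 229, and those of Ptprc, Itgam, Fcgr1 and Lyz2 lay between 5.6 and 63.2. The summed level of 6 adipocyte markers, of which 4 were above the filter, overlapped between untreated wild-type (12052 to 13955) and S273A cells (12939 to 14041). It lay at 30114 to 30519 with rosiglitazone and 19046 to 19267 with MRL24. Fabp4 made up most of this sum, at 9509, 9701, 25153 and 15339 in untreated, S273A, rosiglitazone and MRL24 cells. The sum therefore mainly reads that 1 gene, and Pparg did not share its rise with the ligands (904 untreated, 834 and 846). The part of these markers in the differences of Egr2, Klf4, Cebpb, Cebpd and Stat5a was not tested.

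Genes most like each member were picked by the Pearson correlation of log2 values over the 12 arrays, as a description; arrays within a group share their condition. For Egr2 1427683_at they were Magee1 (r = 0.946) and Spred2, an inhibitor of Ras-ERK signalling (0.937), and for 1427682_a_at Ankrd44 (0.969) and Egr1 (0.954). For Klf4 1417394_at they were Secisbp2l (0.969) and Ythdc1 (0.962), and for Cebpd 1423233_at the lysosomal genes Lamp2 (0.947) and Asah1 (0.936). For Cebpb 1418901_at they were Ltbp1 (0.954) and Gng10 (0.949), and for 1427844_a_at Slc2a1, the glucose transporter GLUT1 (0.966), and Spg21 (0.949). For Stat5a 1450259_a_at they were Lman2 (0.946) and Ids (0.937). For Klf5 1451021_a_at, which was not called in any comparison, they were Numbl (0.947) and Numa1 (0.945), for Cebpa Grpr (0.825) and Eif4e3 (0.823), and for Ebf1 1448293_at Phka1 (0.803) and Zfp91 (0.781).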

How the data were processed

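RNA of 12 arrays in 4 groups of 3 was analysed. The authors deposited a table of intensity values on a linear scale with near-equal array medians, from 1 upward; the sources used here do not give the normalization. Of 22690 probe sets, 20380 had 1 gene symbol and were kept, and 64 controls, 691 with several symbols and 1555 without one were left out. Values were taken to log2(value + 16), and 14266 probe sets at or above the 30th percentile of mean intensity (110) were fitted with limma 3.58.1 in R 4.3.3 (lmFit, eBayes with a trend, 8 residual degrees of freedom), with Benjamini-Hochberg adjustment within each comparison. The fit was tested on simulated data. A gene stands by its brightest tested probe set. The members, lists and tests were chosen with earlier results of these data known; contrasts with S273A and means of probe sets were added after the data had been seen. All member probe sets are named, up to 4 called genes per list and comparison with the largest change (fewer are described), 2 most alike genes per member, and markers; Stat5b, Pparg, Ccn1, Ctnnb1 and Thy1 with S273A and other probe sets of list genes were added after their values were seen. Replicate numbers did not pair samples (correlations of deviations −0.129 to 0.134). Exact tests of 3 against 3 cannot go below p = 0.1. Figures used matplotlib 3.10.9. Tables used python 3.11.15 with numpy 2.4.6 and pandas 2.3.3.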

Additional observations from a re-analysis of the deposited data

Results flagged for a closer look

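The effects of the 2 ligands differed at 2 member probe sets, tested as the contrast between rosiglitazone and MRL24 in the fit over all probe sets. Cebpd 1423233_at differed by −0.38 on the log2 scale (limma adjusted p = 0.00203), with all 3 rosiglitazone arrays below all 3 MRL24 arrays. The dim Cebpd probe set, 1456605_at, differed by 0.19 (limma adjusted p = 0.554), and the mean of both by −0.09 (0.553). Cebpb 1418901_at differed by −0.21 (limma adjusted p = 0.0276), again with the 3 rosiglitazone arrays below the 3 MRL24 arrays, and this call was lost without any of these 6 arrays (adjusted p = 0.0654 to 0.129). It was lost too without a filter (0.0617) and without a trend in the variance model (0.119). The other Cebpb probe set, 1427844_a_at, differed by −0.22 (limma adjusted p = 0.263) and was called in 3 of 22 alternatives. The mean of both differed by −0.21 and was not called (0.099).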

How the results depend on the processing

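Each comparison was repeated under 23 other settings (other pseudocounts and filters, other scalings, other variance models, 1 probe set per gene, only the 6 arrays compared, and leaving out each array) and with the mean of a gene's probe sets, added after the data had been seen. No called member difference changed direction. The number of member genes called with S273A was 2, 1 with only the 6 arrays compared, and 1 to 2 when an array was left out (1 without S273A replicate 2 or 3). With rosiglitazone it was 3, and 2 to 3 over all alternatives. With MRL24 it was 1; it became 2 with quantile normalization, 3 with equal medians, 2 with array weights, 2 with probe set means, 0 with only the 6 arrays and 0 without a trend, and ran from 0 to 3 when an array was left out (3 without wild-type replicate 3, 0 without MRL24 replicate 2 or 3). The calls gained with MRL24 by the brightest probe sets were of Egr2 and Klf4, both lower; with probe set means Stat5a was called. Between the ligands it was 2; it became 3 with only the 6 arrays compared and 3 with array weights, 1 without a filter, 1 without a trend and 0 with probe set means, and ran from 1 to 3 when an array was left out (3 without wild-type replicate 2, 1 without any of the 6 ligand arrays). The cause of these changes was not tested. Settings with fewer arrays also leave fewer degrees of freedom, and the part of this was not tested either. With the replicate number as a block the member counts stayed at 2, 3, 1 and 2, while all probe sets called went from 1152, 1354, 1247 and 340 to 943, 1153, 987 and 248; the samples share only a number. Over single arrays left out, those totals ran from 665 to 1154, 698 to 1478, 320 to 1643 and 140 to 782, and over the other settings from 386 to 1200, 676 to 1445, 394 to 1319 and 203 to 1020. Precision is limited by having 3 arrays a group, and 3 dim probe sets give no measure of Nr1h3, Klf15 or the third Ebf1 probe set beyond their levels.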
